A study of Mus musculus with 16 samples.

Results

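G1E-ER4 cells held at 75 nM beta-estradiol were compared with the same cells at both ends of a dose series, 0 nM and 200 nM. The comparison used 6 of the 16 libraries in the series, 2 each at 0, 75 and 200 nM, picked by the dose in their labels, and set 75 nM against the average of the ends on the log2 scale. All 16 libraries, from 8 doses, entered the statistical model. G1E-ER4 is a line of mouse erythroid progenitors without endogenous GATA1, to which a fusion of GATA1 with the estrogen receptor's hormone-binding part was added. Beta-estradiol brings the fusion protein into the nucleus, so the dose sets how much of it can act. The 0 nM cells are the untreated control and carry the same fusion. All groups grew in serum-containing medium with stem cell factor and erythropoietin, and RNA was prepared with Smart-seq2. It is a single cell line, the sources used here do not give the length of exposure, and separate cultures are not stated, so p-values measure the spread between these libraries only.

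GATA1 is the master transcription factor of red cell development. It turns on the genes for hemoglobin, heme and the red cell membrane, and it shuts down the progenitor programme, including Gata2 and Myc. Cells between the progenitor and the maturing state go through a few rapid divisions in which DNA synthesis runs high, before the cell cycle stops and organelles are cleared. E2F proteins are the transcription factors that switch genes for DNA synthesis on and off in the cycle.

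The 6 libraries held 12834685 to 14847803 counts each. CPM, the counts of a gene scaled to a common library total, are scaled here by TMM, which corrects each library for its composition. Globin genes took 0.151% of counts in both 0 nM libraries, 1.68% and 1.69% at 75 nM, and 5.82% and 5.88% at 200 nM. Rn45s, the ribosomal RNA precursor, took 11.9% and 12.2% at 75 nM, between 9.53% and 9.61% at 0 nM and 14.6% and 15.3% at 200 nM. These shares moved with the dose, and their part in the results was not tested. Erythroid markers were present at 75 nM, with the band 3 gene Slc4a1 at 1651 and 1681 CPM. Summed markers of lymphocytes, and of fibroblasts and endothelium, stayed below 1 CPM in each of the 6 libraries. Granulocyte and macrophage markers summed to 0.98 and 1.23 CPM at 75 nM, within the 0.74 to 1.26 at 0 nM, and to 3.47 and 4.51 at 200 nM, with 11 of 16 at 0 in both 75 nM libraries. Mast cell and basophil markers summed to 1.96 and 3.15 CPM at 75 nM, against 2.90 and 3.74 in the untreated cells, then 8.47 and 8.75 at 200 nM, with 7 of 11 at 0 in both 75 nM libraries. Megakaryocyte markers summed to 29.4 to 32.5 CPM at 0 nM, 125 to 127 at 75 nM and 634 to 654 at 200 nM. Of the 16 markers on that list 8 were at 0 in both 75 nM libraries, among them Vwf, Ppbp and Gp1bb, and most of the sum came from Itgb3 and Tubb1. The part of these markers in the results was not tested. RNA was taken from whole cultures, so fewer cells of a type and less RNA per cell cannot be told apart.

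At 75 nM, genes of DNA replication (39 of 39), nucleotide synthesis (25 of 26) and ribosome biogenesis (38 of 40) were above the log2 midpoint of the ends, and 11 of 15 targets of p53 were below it. Across 10080 genes tested, 2833 (28.1%) lay above the log2 midpoint of 0 and 200 nM and 1915 (19%) lay below it (quasi-likelihood test of edgeR with Benjamini-Hochberg adjustment, adjusted p under 0.05). The difference reached 2-fold in 159 genes above and 76 below, and the median over all genes was 0.04. With scaling by library size alone the split became 3600 above and 1324 below, with a median of 0.11. Genes lower at 200 nM than at 0 nM were often above the midpoint: 1996 of 3977, or 50.2%, had fallen less than midway, and 225 were below. Genes higher at 200 nM showed the opposite lean, with 1464 of 4086 (35.8%) below the midpoint and 566 above it. That lean depends on the equal midpoint. Against a reference with less weight on 200 nM, described below, this class had 1049 above and 669 below.

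**Figure D1:**
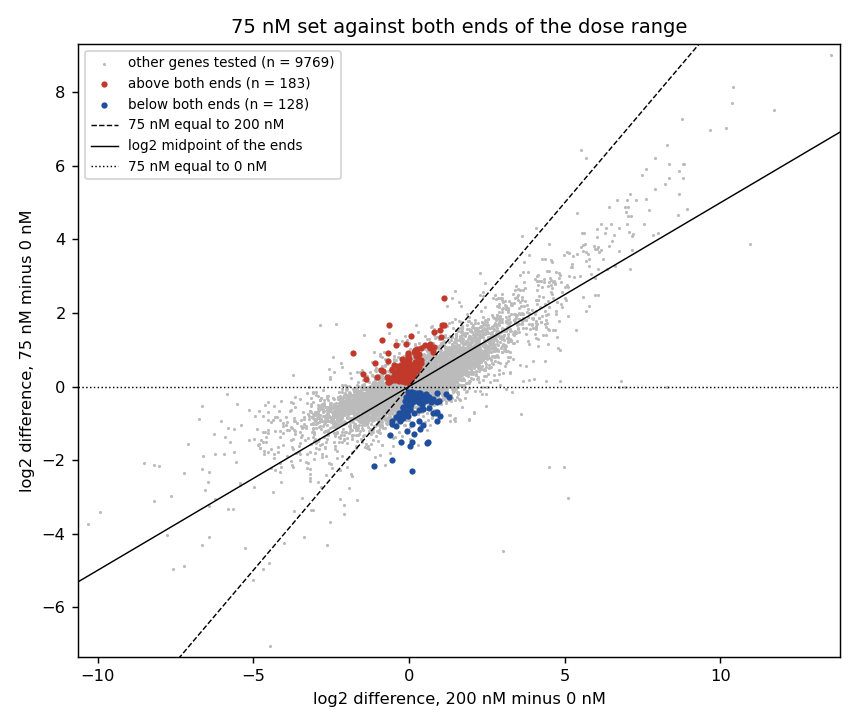
Each point is a gene of the 10080 tested, with the log2 difference of 200 nM from 0 nM on the x axis and of 75 nM from 0 nM on the y axis. The solid line is the log2 midpoint of the ends, the dashed line is equality with 200 nM and the dotted line equality with 0 nM; the 183 red and 128 blue genes lay outside both ends and cluster where the ends differ little. The axes share the 0 nM libraries, so the slope of the cloud is not a result.

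Against each end alone, 75 nM was higher than 0 nM for 2928 genes (29%) and lower for 2715 (26.9%). Library-size scaling gave 2143 higher and 3811 lower. Against 200 nM, 3533 genes (35%) were higher and 3620 (35.9%) lower at 75 nM, and library-size scaling gave 4849 and 2422. These contrasts share the 75 nM libraries with each other and the end libraries with the midpoint.

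A plain mix of 0 nM and 200 nM RNA lies between the ends for every gene. For 183 genes (1.82%) the 75 nM level was above both ends, and for 128 (1.27%) it was below both (same fit, the larger of the 2 p-values of each gene adjusted over all genes). In all 311 genes the 75 nM libraries did not overlap the 4 end libraries. The same libraries picked these genes, so this largely follows from the choice and is not separate evidence. Most were modest: the median distance beyond the nearer end was 0.32 on the log2 scale above and -0.39 below, and 1.5-fold was passed by 26 genes above and 30 below. Of the 183 genes, 96 had their highest mean of all 8 doses at 75 nM, 48 at 100 nM and 31 at 50 nM. Of the 128 genes, 84 had their lowest mean at 75 nM, 24 at 100 nM and 18 at 50 nM. Both sets were picked for standing outside the ends at 75 nM. A peak or low at or near that dose therefore partly follows from the choice. The lists depend on scaling: by library size 183 and 117 genes were called, of which 100 and 70 were shared with the TMM lists. Leaving out 75 nM replicate 1 gave 111 above and 69 below, and leaving out 75 nM replicate 2 gave 112 and 73. Without 0 nM replicate 1 there were 84 below both ends, and without 0 nM replicate 2 there were 80.

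E2F-family and cell-cycle regulators were among the genes above both ends. Mybl2, a cell-cycle transcription factor related to Myb (chromosome 2, 163054687 to 163084688, GRCm38), stood at 23.3 and 20.2 CPM at 0 nM, 37.2 and 35.7 at 75 nM, then 17.96 and 19.57 at 200 nM. It was highest at 75 nM of all 8 doses, 0.74 log2 above the nearer end (edgeR, adjusted p = 5.30e-07). E2f8, an atypical E2F that represses the cycle's genes, had 66.5 and 69.4 CPM at 0 nM, 104.7 and 111.7 at 75 nM, then 78.0 and 77.8 at 200 nM. Its level was 0.47 log2 beyond the nearer end (edgeR, adjusted p = 2.32e-07). Its relative E2f7 read 22.6 and 22.8, then 34.3 and 36.3, then 18.4 and 23.6 CPM, 0.63 log2 beyond the nearer end (edgeR, adjusted p = 8.10e-06). E2f7 was not picked by the naming rule and is described after its values were seen. Rbl1, the pocket protein p107 that binds E2Fs, rose from 63.9 and 57.8 CPM to 129.3 and 122.8 and stood at 75.6 and 84.2 at 200 nM. Its excess of 0.66 log2 (edgeR, adjusted p = 0.0277) did not pass the threshold when any single library of the 3 doses was left out, with adjusted p from 0.0507 to 0.19. Of the 17 genes on the list of G1 cyclins and kinases, 3 were above both ends, beside 1.82% of all genes, Ccne2 being the other beside E2f8 and Rbl1, and 13 were above the midpoint, beside 28.1% of all genes, with a median of 0.28.

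Genes for making deoxynucleotides and for the replication fork followed. Rrm2, the small subunit of ribonucleotide reductase (chromosome 12, 24708241 to 24714146), had 740.8 and 741.1 CPM at 0 nM, 952.1 and 926.7 at 75 nM, then 534.6 and 549.0 at 200 nM. All 75 nM values exceeded all end values, by 0.34 log2 from the nearer end (edgeR, adjusted p = 3.45e-12). Rrm1, the large subunit of the same enzyme, read 1122 and 1113, then 1469 and 1456, then 1256 and 1194 CPM, so its 200 nM level was the nearer end, at a distance of 0.26 log2 (edgeR, adjusted p = 6.12e-09). Chaf1a, which loads histones on new DNA, had 149.3 and 150.8 CPM, 179.4 and 176.7, and 90.0 and 93.7 in the same order, 0.25 log2 beyond 0 nM (edgeR, adjusted p = 1.68e-04). Rfc4, a subunit of the loader of the replication clamp, had 175.1 and 176.2, 203.6 and 210.9, and 112.6 and 110.8 CPM, 0.24 log2 beyond 0 nM (edgeR, adjusted p = 1.61e-04). Under library-size scaling Chaf1a and Rfc4 were no longer called above both ends (edgeR, adjusted p = 0.188 for each), while Rrm1 and Rrm2 were. In each of these genes the 200 nM libraries were either the lowest or between the others, and the 75 nM pair was the highest of the 6.

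The promoters of the genes above both ends were searched for TTCCCGC or its reverse GCGGGAA, the letters typical of an E2F site, on both strands from 250 bases before to 50 after the RefSeq start. This motif was chosen after the genes had been seen. Of the 183 genes, 124 had a single RefSeq promoter, and 28 of these (22.6%) held the motif. The share was 8.24% (7 of 85) for genes below both ends and 9.77% (589 of 6030) for all genes tested. For the larger set above the midpoint it was 14.1% (251 of 1779), and for genes below the midpoint 6.63% (76 of 1146). A GATA motif, AGATAA or TTATCT, was held by 4.84% (6 of 124) above both ends, 5.88% (5 of 85) below and 6% of all genes tested. The shares are descriptions of letters in a window and do not show binding. The stretches below, 60 bases each from RefSeq on GRCm38.p6 in the gene's direction, show the match in capitals for 5 of the genes that held it. Mybl2, E2f8, Rbl1, Rrm2, Aurka and Cdk1, also above both ends, had no match in this window, which says only that these letters were not there.
E2f7, chr10:110745189-110745248, plus strand: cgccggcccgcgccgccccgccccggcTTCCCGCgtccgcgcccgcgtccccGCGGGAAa
Chaf1a, chr17:56040342-56040401, plus strand: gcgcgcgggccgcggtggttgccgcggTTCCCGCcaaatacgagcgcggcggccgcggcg
Rrm1, chr7:102441601-102441660, plus strand: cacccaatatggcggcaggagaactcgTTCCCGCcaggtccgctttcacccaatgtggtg
Rfc4, chr16:23127687-23127746, minus strand: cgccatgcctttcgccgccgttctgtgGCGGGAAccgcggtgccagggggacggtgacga
Asns, chr6:7693191-7693250, minus strand: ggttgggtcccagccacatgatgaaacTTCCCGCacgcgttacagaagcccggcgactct
The window of E2f7 held the motif in both orientations. The match began 67 bases before the start in Rrm1, 47 in Chaf1a and 14 in Asns, and 11 bases after it in Rfc4. In a check, bases after the start were found in a GENCODE transcript of the gene for E2f7, Rrm1 and Asns. For Chaf1a and Rfc4 no match was found in either direction, so their starts and distances are less sure.

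The genes next described were furthest above both ends among those with at least 20 CPM in the highest of the 3 doses. Genes with lower levels, such as Marcksl1 (12.9 CPM at 75 nM), were further above. Aqp3, a channel for water and glycerol, rose from 15.4 and 13.9 CPM to 41.4 and 40.3 at 75 nM and stood at 26.4 and 24.8 at 200 nM. It was 0.67 log2 above the 200 nM end (edgeR, adjusted p = 1.09e-06). Rptor, the Raptor subunit of the growth kinase complex mTORC1, had 61.2 and 59.8 CPM at 0 nM, 97.3 and 94.4 at 75 nM, then 58.2 and 55.7 at 200 nM, 0.66 log2 beyond the nearer end (edgeR, adjusted p = 5.48e-11). Ubac1, part of a ubiquitin ligase, was 0.72 log2 above the nearer end, and Wbscr16 0.92. Pcgf6, a Polycomb protein, exceeded the nearer end by 0.69. Its call was lost without 0 nM replicate 2 (edgeR, adjusted p = 0.0526) and without 75 nM replicate 1 (0.0506). Nol9, a kinase that acts in ribosomal RNA processing, stood 0.91 above the nearer end (edgeR, adjusted p = 0.0433). Its 0 nM libraries differed, at 73.1 and 54.9 CPM, and leaving out any one of the 6 libraries gave adjusted p from 0.0569 to 0.295. Library-size scaling gave 0.0963 and no filter on low counts 0.0618, so the Nol9 call is not stable. Steap3, the endosomal iron reductase of erythroid cells, was the only member of 14 on the iron list above both ends, at 550.8 and 563.0 CPM against 488.3 and 490.7 at 200 nM and 286.2 and 289.5 at 0 nM. That excess was 0.19 log2 (edgeR, adjusted p = 4.35e-05).

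The genes furthest below both ends, among those with at least 20 CPM in the highest of the 3 doses, were Ces2g and Slc7a8. Slc7a8, a transporter of neutral amino acids (chromosome 14, 54722209 to 54781946), had 167.2 and 159.4 CPM at 0 nM, 72.4 and 73.6 at 75 nM, then 215.1 and 200.6 at 200 nM. It was 1.16 log2 below the nearer end (edgeR, adjusted p = 5.00e-20), and its mean fell from 163 CPM at 0 nM to 127 at 25 nM and 80.9 at 50 nM, reached 73.0 at 75 nM and climbed to 102 at 100 nM. Ces2g, a carboxylesterase (chromosome 8, 104961718 to 104969537), read 36.2 and 34.8, then 8.27 and 9.56, then 26.99 and 21.77 CPM. At 1.45 log2 it lay furthest below both ends of the genes with at least 20 CPM (edgeR, adjusted p = 4.94e-12). Mfsd2b, the exporter of sphingosine-1-phosphate in red cells, had 251.7 and 257.5 CPM, 161.4 and 157.0, and 253.6 and 248.6. Its ends were alike and its 75 nM pair was 0.66 log2 lower (edgeR, adjusted p = 3.18e-16).

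Ces2g was among the 5 genes below both ends with a GATA motif in the searched window, 38 bases before its start, and the stretch is printed because this gene lay furthest below both ends among those with at least 20 CPM.
Ces2g, chr8:104961653-104961712, plus strand: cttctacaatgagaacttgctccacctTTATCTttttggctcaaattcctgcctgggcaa
The capitals mark the motif in its reverse form.

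Of the 24 genes tested for adhesion, cytoskeleton and motility, 3 were below both ends, 10 were below the midpoint, 5 above it, and the median was -0.01. Library-size scaling gave 7 below, 6 above, 4 below both ends and a median of 0.06. Under TMM, 1.27% of all genes tested were below both ends, 19% below the midpoint and 28.1% above it. Actg1, cytoplasmic gamma-actin, had 81.4 and 84.9 CPM at 0 nM, 41.8 and 37.2 at 75 nM, then 60.5 and 64.2 at 200 nM, a dip of -0.66 log2 from the nearer end (edgeR, adjusted p = 3.66e-09). Itga4, the alpha-4 integrin that binds progenitors to stroma, read 122.4 and 116.0, 72.7 and 67.4, and 109.8 and 98.8 CPM, a dip of -0.57 (edgeR, adjusted p = 2.65e-09). Zyx, zyxin of focal adhesions, went from 18.3 and 17.0 CPM to 9.18 and 11.0 and then to 36.2 and 33.9, a dip of -0.81 (edgeR, adjusted p = 8.10e-06). Actb, the other cytoplasmic actin, was not called against the midpoint, with a difference of -0.03. Reads of actin copies can be split between them by the counter, so single actin values are uncertain. Cd55, which guards cells against complement, dipped by -1.14 log2, the E3 ligase Rnf128 by -0.77, the semaphorin receptor Plxnc1 by -0.73 and the lipid droplet protein Plin3 by -0.72. Hhex, a progenitor homeobox factor, was lower at 75 nM (36.4 and 35.7 CPM) than at 200 nM (46.2 and 48.5) and 0 nM (69.2 and 69.7), a dip of -0.40 (edgeR, adjusted p = 4.32e-04). Gp5, a platelet glycoprotein, fell from 13.4 and 11.2 CPM to 2.59 and 2.90 and stood at 6.45 and 4.998 at 200 nM, unlike Itgb3 and Gp9 of the same megakaryocyte list, whose 75 nM values lay between the ends. By library size neither Hhex nor Gp5 was below both ends (edgeR, adjusted p = 1 and 0.242).

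**Figure D2:**
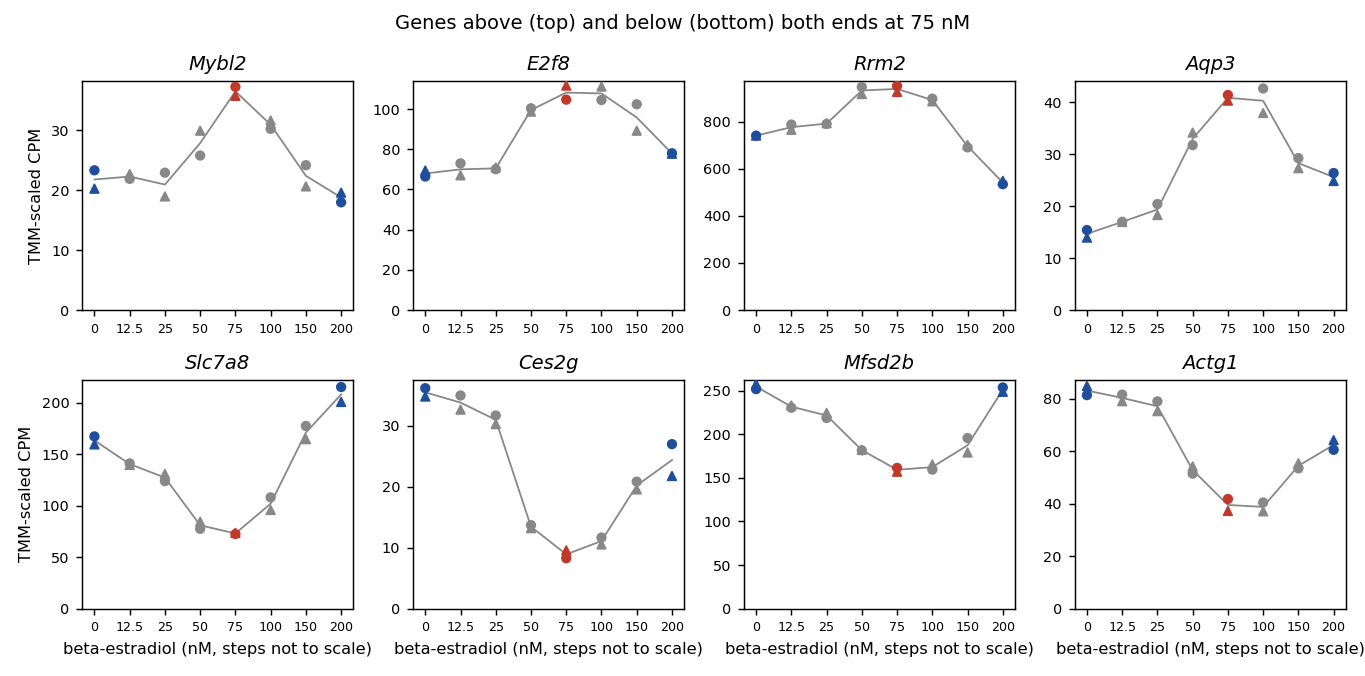
TMM-scaled CPM by beta-estradiol dose for 4 genes above (top row) and 4 below (bottom row) both ends, with circles for replicate 1, triangles for replicate 2 and lines through the means (75 nM red, ends blue, n = 2 per dose, doses at even steps). Mybl2 had its peak at 75 nM, Slc7a8, Ces2g and Mfsd2b their low at 75 nM, and Actg1 was about as low at 100 nM (38.8 CPM) as at 75 nM (39.5 CPM).

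The DNA replication list sat above the midpoint as a whole. All 39 of its tested members were called above, against 28.1% of all genes, with a median of 0.46 against 0.04 over all genes, and 6 were above both ends, or 3 by library size. Mcm6, a subunit of the replicative helicase, had 1666 and 1667 CPM at 0 nM, 1751 and 1727 at 75 nM, then 866.1 and 850.2 at 200 nM, a difference from the midpoint of 0.54 ± 0.02 (standard error, edgeR, adjusted p = 3.30e-24). The 75 nM libraries were slightly above those at 0 nM, and the drop came after 100 nM, where the mean was still 1685 CPM. Uhrf1, which carries DNA methylation across replication, stood 0.65 ± 0.03 above the midpoint, and the helicase subunits Mcm4 and Mcm2 0.53 ± 0.03 and 0.47 ± 0.02. Relative to 200 nM, 37 of the 39 were higher at 75 nM, beside 35% of all genes. Relative to 0 nM, 14 were higher and 5 lower (29% and 26.9% of all genes). With library-size scaling 6 were higher and 18 lower, so the direction from 0 nM turns with the scaling. For the 12 members that differed at least 2-fold between the ends, the median position at 75 nM on the log2 path from 0 nM to 200 nM was 0.05, where 0 is the 0 nM level and 1 the 200 nM level. Over all 3740 such genes it was 0.36.

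Nucleotide synthesis genes had begun to fall but lagged too. Of 26 tested, 25 were above the midpoint and 1 below (28.1% and 19% of all genes). Their median was 0.57 and their position 0.18. Gart, an enzyme of purine synthesis, went from 726.2 and 714.5 CPM to 501.7 and 507.1 and then 109.2 and 103.4, which was 0.87 ± 0.03 above the midpoint (edgeR, adjusted p = 3.97e-28). Dut, which clears dUTP, stood 0.77 ± 0.03 above and the folate enzyme Mthfd1 0.60 ± 0.03. Impdh1, the minor isoform of the enzyme that makes guanine nucleotides, was the exception and lay below both ends, at 13.98 and 13.4 CPM, then 4.84 and 4.78, then 9.95 and 12.7. Its partner Impdh2 was 0.42 above the midpoint.

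Genes of ribosome biogenesis had 38 of 40 members above the midpoint and 1 below (28.1% and 19% of all genes), with a median of 0.51. In this list 37 were lower than at 0 nM and 38 higher than at 200 nM (26.9% and 35% of all genes). The median position was 0.23. Nolc1, a nucleolar phosphoprotein, read 620.4 and 615.7 CPM at 0 nM, 458.7 and 453.7 at 75 nM, then 120.1 and 122.9 at 200 nM. That was 0.73 ± 0.03 above the midpoint (edgeR, adjusted p = 3.40e-25). Dkc1, Nop58 and Npm1, nucleolar proteins as well, were 0.65, 0.57 and 0.41 above it. Cytosolic ribosomal protein genes stayed near the midpoint under TMM, with 18 of 57 above, 5 below and a median of 0.06, but library-size scaling put 41 above and 1 below.

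Replication-dependent histones had 14 of 26 above and none below the midpoint (28.1% and 19% of all genes). Above both ends were 3 (1.82% of all genes), Hist2h4, Hist1h1b and Hist4h4, of which Hist2h4 alone kept the call by library size. Transcripts on this list mostly lack poly(A) tails, which Smart-seq2 relies on. Levels were at or below 25.3 CPM outside Hist1h1c, and near-identical copies make single values uncertain. On the mitosis list 24 of 34 were above the midpoint and 3 below (28.1% and 19% of all genes). Against 0 nM, 30 of them were higher, beside 29% of all genes. Against 200 nM, 14 were higher and 14 lower, beside 35% and 35.9% of all genes. Aurka, a spindle kinase, had 157.1 and 154.9 CPM at 0 nM, 240.3 and 248.9 at 75 nM, then 201.5 and 209.3 at 200 nM, 0.25 log2 above both ends (edgeR, adjusted p = 2.58e-05). Cdk1, Plk1 and Kif11, the mitotic kinases and a spindle motor, were also above both ends, by 0.17, 0.28 and 0.24, though Cdk1 was not by library size (edgeR, adjusted p = 1). Cdc25b, a phosphatase that activates cyclin-dependent kinases, instead climbed throughout, from 14.7 and 14.1 CPM to 210.5 and 205.5 and then to 705.7 and 682.0, which put it 1.06 ± 0.04 above the midpoint. Ube2c, which marks mitotic cyclins for destruction, was below the midpoint by -0.22 and rose from 0 nM through 75 nM to 200 nM.

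**Figure D3:**
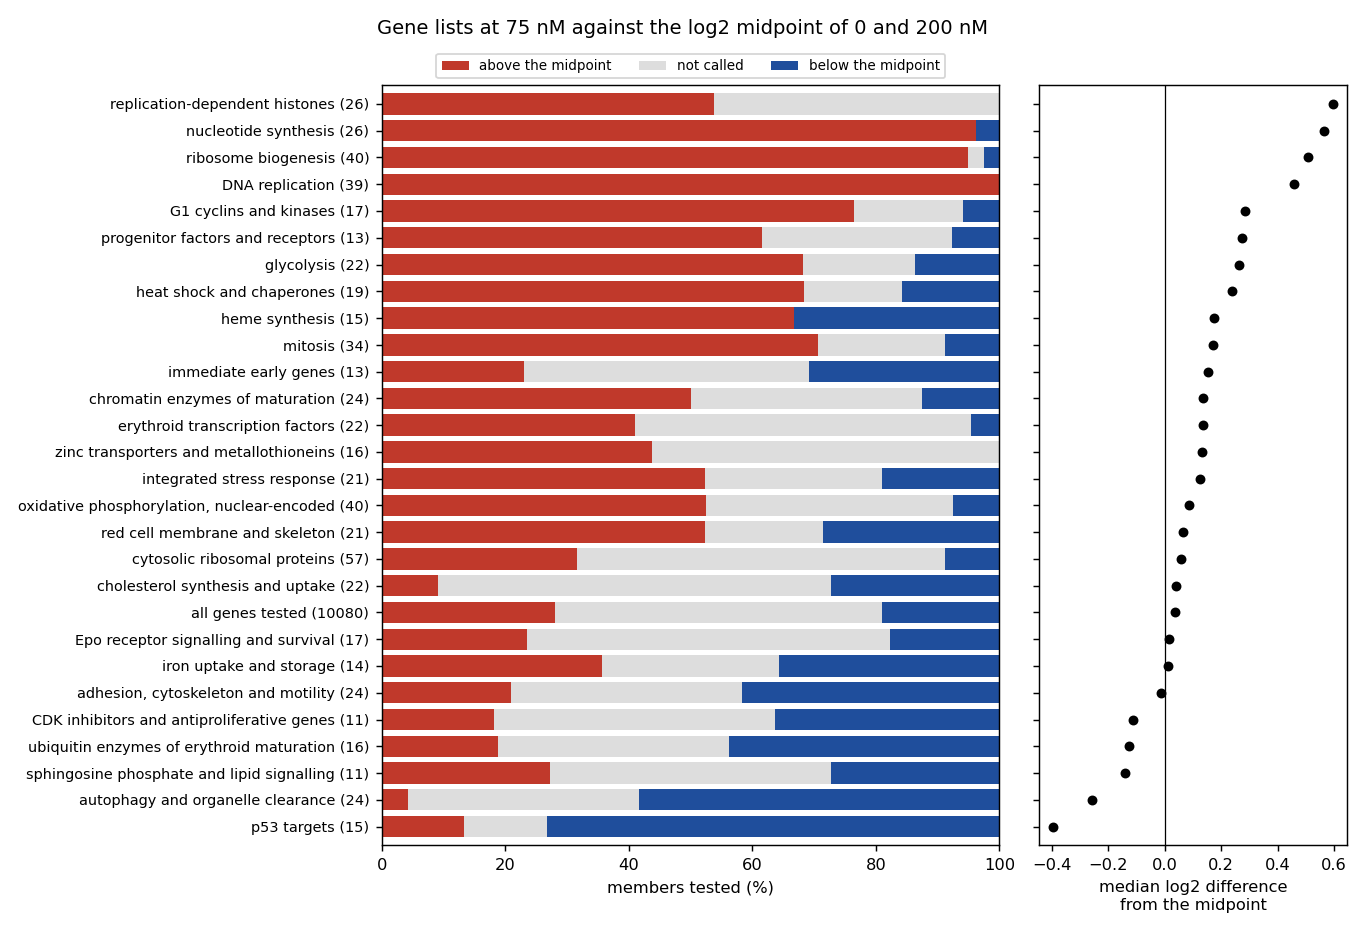
Left, the share of the tested members of each gene list (number tested in brackets) called above, not called or called below the log2 midpoint at 75 nM. Right, the median log2 difference from the midpoint; DNA replication had 39 of 39 above, p53 targets 11 of 15 below, and all genes tested had a median of 0.04.

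Hemoglobin genes were far below their 200 nM level on the linear scale and beyond the midpoint on the log2 scale. Of the 7 globin and chaperone genes tested, 6 were above the midpoint (28.1% of all genes), with a median of 0.82. Hba-a2, an alpha-globin, had 277.4 and 281.1 CPM at 0 nM, 2621 and 2674 at 75 nM, then 10540 and 10240 at 200 nM, 0.64 ± 0.02 above the midpoint (edgeR, adjusted p = 2.98e-26). Beta-s, an adult beta-globin entry, went from 1081 and 1073 to 13690 and 13610 to 55500 and 55220 CPM, 0.82 ± 0.05 above. Both have near-identical copies and are uncertain as single genes. Hbb-bh1, an embryonic beta-like globin (chromosome 7, 103841637 to 103843164), read 0.74 and 0.38, then 106.8 and 103.9, then 1945 and 1917 CPM. Its position on the log2 path was 0.64 although its 75 nM level was a small part of that at 200 nM. Hbb-y, another embryonic globin, was the 1 member not called, at 1.19 and 0.87 CPM at 75 nM against 140.7 and 139.2 at 200 nM, with 2 counts over both 0 nM libraries. Hba-x had no count at 0 nM and 4.14 and 4.93 CPM at 75 nM, and its fitted difference depends on the prior count, so none is given.

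Members of the heme synthesis and red cell membrane lists lay on both sides of the midpoint. Alas2, the first and limiting enzyme of erythroid heme synthesis, had 32.9 and 32.8 CPM at 0 nM, 816.7 and 826.1 at 75 nM, then 4354 and 4285 at 200 nM, 1.12 ± 0.03 above the midpoint (edgeR, adjusted p = 3.91e-32). Ppox, which makes protoporphyrin, had nearly reached its 200 nM level, with 77.0 and 73.0 CPM against 80.7 and 78.8, and 25.6 and 29.9 at 0 nM. The mitochondrial carrier Slc25a39 lagged, 0.23 below the midpoint, with 655.0 and 677.8 CPM at 75 nM against 2514 and 2447 at 200 nM. Of the 15 heme genes 10 were above and 5 below (28.1% and 19% of all genes), or 10 and 2 by library size. Slc4a1, the band 3 anion exchanger, had 81.29 and 84.97 CPM at 0 nM, 1651 and 1681 at 75 nM, then 6726 and 6641 at 200 nM, 1.16 ± 0.03 above the midpoint (edgeR, adjusted p = 2.11e-35). Epb4.9 (dematin) was 1.27 ± 0.05 above it, while Ermap, Add1 and Xk, also of the membrane or its skeleton, were below by -0.23, -0.18 and -0.20. That list counted 11 above and 6 below of 21, or 12 and 2 by library size, with a median of 0.06 that is near the 0.04 of all genes. All 21 were higher than at 0 nM and 20 were lower than at 200 nM (29% and 35.9% of all genes). Under library-size scaling these counts were 20 and 20.

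Erythroid transcription factors had 9 of 22 above the midpoint and 1 below, with a median of 0.14, beside 28.1% and 19% of all genes. By library size 14 were above and 1 below. Gata1 transcripts stood at 754.4 and 666.5 CPM at 0 nM, 1175 and 1216 at 75 nM, then 1675 and 1610 at 200 nM. The difference from the midpoint, 0.15 ± 0.06, did not pass the threshold (edgeR, adjusted p = 0.0755), though it did with library-size scaling (0.22, adjusted p = 0.0186) and without 0 nM replicate 1 (0.19, adjusted p = 0.00273). The counts do not separate the cells' own Gata1 transcript from that of the fusion. Gata2, the progenitor factor that GATA1 replaces, fell from 132.9 and 120.6 CPM to 69.3 and 71.0 and to 14.92 and 17.96, 0.62 ± 0.10 above the midpoint (edgeR, adjusted p = 9.83e-05). Both results depend on the equal midpoint. Against the reference with less weight on 200 nM, described below, Gata2 was not called (0.20, edgeR, adjusted p = 0.112). Gata1 was called above that reference (0.32, edgeR, adjusted p = 0.00263). E2f2, an E2F active in erythroid cells, had reached its 200 nM level, at 74.2 and 71.4 CPM against 73.1 and 64.0.

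Autophagy genes and targets of p53 were more often below the midpoint than above it. Of 24 genes for autophagy and organelle clearance, 14 were below and 1 above (19% and 28.1% of all genes), with a median of -0.26. Optn, an autophagy receptor, had 107.0 and 103.5 CPM at 0 nM, 92.9 and 95.1 at 75 nM, then 251.1 and 239.2 at 200 nM, -0.77 ± 0.04 from the midpoint (edgeR, adjusted p = 2.20e-20). It had not begun to rise at 75 nM. Sqstm1 (the cargo receptor p62) and Gabarap and Map1lc3b (membrane proteins of the autophagosome) had begun to rise and lay -0.35, -0.40 and -0.41 from the midpoint. Lamp1, a lysosomal membrane protein, was the 1 member above it.

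Among 15 targets of p53, 11 were below and 2 above the midpoint (19% and 28.1% of all genes). Their median was -0.40 and their position 0.29. Trp53inp1, a p53-induced protein of autophagy and cell death, read 18.3 and 20.7 CPM, then 66.9 and 67.9, then 561.6 and 539.7, -0.62 ± 0.05 from the midpoint (edgeR, adjusted p = 8.55e-14). Eda2r, a death-domain receptor, was at 23.6 and 26.3 CPM at 75 nM, level with 23.6 and 23.4 at 0 nM, against 87.5 and 81.3 at 200 nM. Bax and Zmat3, genes of cell death and RNA control, were -0.38 and -0.52 from the midpoint. CDK inhibitors and antiproliferative genes were mixed, with 2 of 11 above and 4 below. Btg2 was 1.07 ± 0.04 above with 213.9 and 200.1 CPM at 75 nM, and the cycle inhibitor Cdkn1a -0.31 ± 0.03 from it with 207.1 and 206.4.

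An equal midpoint is one choice of reference. The reference was then moved to the median position of 0.36, so that 200 nM had the smaller weight. Against it 2497 genes (24.8%) were above and 1344 (13.3%) below. Genes higher at 200 nM than at 0 nM leaned the other way, with 1049 (25.7%) above and 669 (16.4%) below. Genes lower at 200 nM kept their lean, with 1191 (29.9%) above and 459 (11.5%) below. The replication list then had 37 of 39 above, ribosome biogenesis 30 of 40 and nucleotide synthesis 25 of 26. Autophagy had 7 of 24 below and 3 above, p53 targets 7 of 15 below and 2 above, and the medians drew near 0, at -0.03 and -0.14. Heme genes had 13 of 15 above and 2 below, membrane genes 17 of 21 above and 1 below, and erythroid transcription factors 16 of 22 above and none below. Against this reference Trp53inp1, Cdkn1a, Slc25a39 and Add1 changed sign. Slc25a39 was called above it (0.25, edgeR, adjusted p = 2.68e-10). Trp53inp1, Cdkn1a and Add1 were not called (edgeR, adjusted p = 0.353, 0.547 and 0.101). Of the autophagy genes named above, Optn was still called below it (-0.60, edgeR, adjusted p = 4.90e-16). Sqstm1, Gabarap and Map1lc3b were not called, at -0.03, -0.05 and -0.10 (edgeR, adjusted p = 0.346, 0.229 and 0.053).

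**Figure D4:**
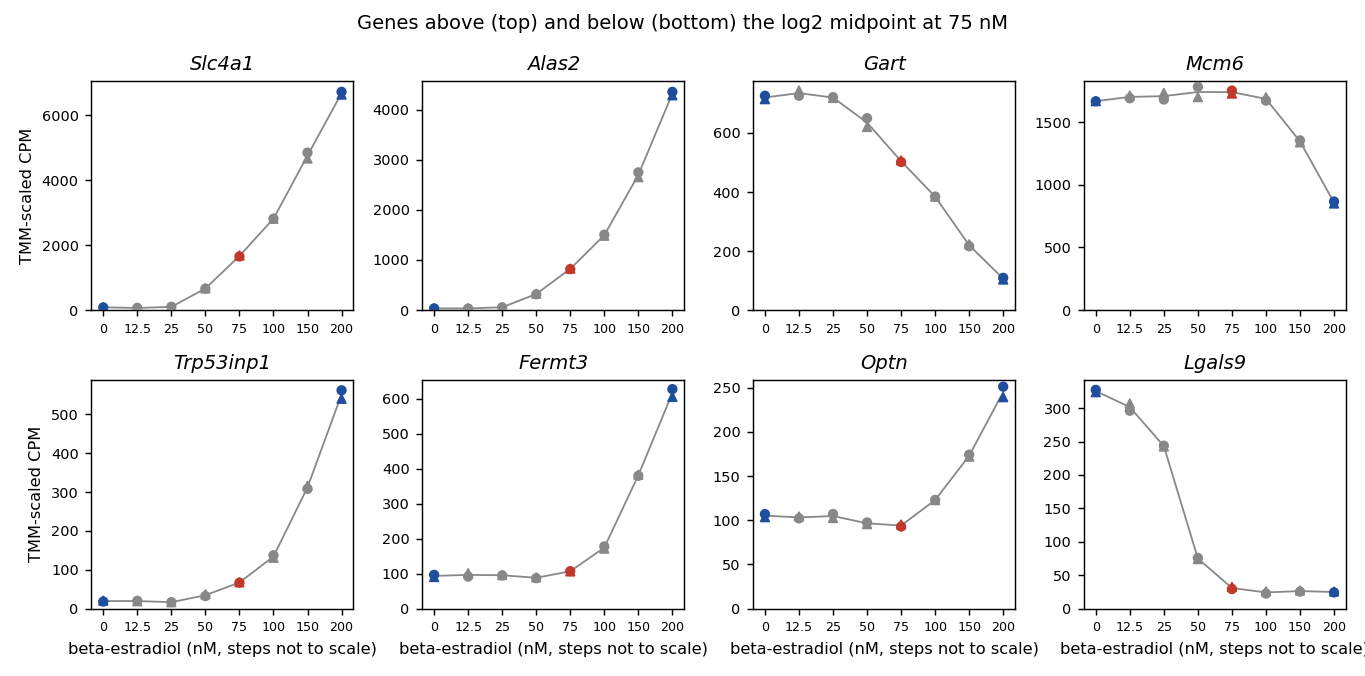
TMM-scaled CPM by beta-estradiol dose for 4 genes above (top row) and 4 below (bottom row) the log2 midpoint at 75 nM, with circles for replicate 1, triangles for replicate 2 and lines through the means (75 nM red, ends blue, n = 2 per dose, doses at even steps). Mcm6 was still at 1685 CPM at 100 nM, Optn and Fermt3 rose from 100 nM, and Lgals9 had reached its low level by 75 nM.

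Metabolic and stress lists had unlike counts, and differences among them were not tested. Of all genes tested, 28.1% were above the midpoint and 19% below. By library size 3600 and 1324 of 10080 genes were above and below. Glycolysis had 15 of 22 above the midpoint and 3 below, with Ldha, lactate dehydrogenase, at 1496 and 1478 CPM between 2354 and 2430 at 0 nM and 386.3 and 408.2 at 200 nM. Heat shock and chaperone genes had 13 of 19 above and 3 below, led by the mitochondrial chaperonin Hspd1 at 0.62 ± 0.02. On the integrated stress response list, with 11 of 21 above and 4 below, Asns, asparagine synthetase, was above both ends at 1663 and 1698 CPM against 1490 and 1504 at 0 nM and 1091 and 1100 at 200 nM (0.17 log2, edgeR, adjusted p = 7.27e-05). Trib3, a stress-induced pseudokinase, was above both ends too, by 0.36. Slc3a2, the heavy chain that pairs with amino acid transporters, was below both, by -0.25. By library size Trib3 was still called outside both ends and Asns and Slc3a2 were not (edgeR, adjusted p = 1 for both). Oxidative phosphorylation depended on scaling, with 21 of 40 above and 3 below under TMM and 36 and 2 by library size. Cholesterol synthesis turned with it, from 2 of 22 above and 6 below to 8 and 1.

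The single genes furthest from the midpoint came from both classes of end difference. Tmem184a had 0.43 and 0.38 CPM at 0 nM, 86.4 and 85.5 at 75 nM, then 565.6 and 539.7 at 200 nM, 2.51 ± 0.11 above the midpoint (edgeR, adjusted p = 2.76e-24). C2cd4a stood higher at 75 nM (37.5 and 37.0 CPM) than at 0 nM (13.2 and 9.83) and 200 nM (1.75 and 2.80), 2.85 ± 0.49 above the midpoint (edgeR, adjusted p = 0.00119), but its excess over 0 nM was not called for both ends (adjusted p = 0.17), and its SD was 13.7 CPM around 23.0 at 50 nM. Acot11, Tubb1 and Wnt2 also ranked high, each with under 1 CPM at 0 nM. Hbb-bh1, described above, ranked high as well and rose with the dose. The remaining high-ranking genes were falling genes that were nearly gone at 200 nM. Tmem44, Fam195a, the deaminase Dctd and the zinc transporter Slc30a2 were 1.65 to 1.76 above, from about 23 to 42 CPM at 0 nM to under 2 at 200 nM. The lowest was Itgal, a leukocyte integrin, at 1.33 and 1.74 CPM against 23.9 and 19.4 at 200 nM (-1.81 ± 0.26). Next came the receptor S1pr4 (-1.76 ± 0.19), Ces2g, described above, and Lgals9, galectin-9. Lgals9 had 327.3 and 323.8 CPM at 0 nM, 29.4 and 32.6 at 75 nM, then 24.3 and 25.7 at 200 nM, -1.54 ± 0.06 from the midpoint (edgeR, adjusted p = 1.12e-25), so nearly all of its fall was in place. Fermt3, kindlin-3 of blood cell integrins, read 96.7 and 90.5, then 107.2 and 106.4, then 627.2 and 605.0 CPM, -1.17 ± 0.04 from the midpoint (edgeR, adjusted p = 1.81e-27).

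A blend of cells at the ends adds up on the linear scale, so each 75 nM library was also matched to a mix of mean 0 nM and mean 200 nM CPM. The best mix held 29.3% of 200 nM for replicate 1 and 29.0% for replicate 2. Of 7764 genes with at least 10 CPM, 94.6% lay within 1.5-fold of the mix by group means. In both 75 nM libraries, and for each of the 4 pairings of a 0 nM with a 200 nM library, 78 genes (1%) were at least 1.5-fold above the mix and 217 (2.79%) below, with no test. Of the 78 genes, 60 were higher at 200 nM than at 0 nM. Of the 217 genes, 104 were higher and 106 lower at 200 nM. Genes above both ends made up 29 of the 78, and genes below both ends 33 of the 217. Hbb-bh1, at 105 CPM, was far below the 564 CPM of the mix although it was above the log2 midpoint, as were 15 genes in all that were higher at 200 nM. Lgals9 read 31.0 CPM where the mix gave 238, and Fermt3 107 where it gave 246. Ppox, at 75.0 CPM against 42.9, and the replication licensing gene Cdc6, at 307 against 197, were above the mix.

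On the path from 0 to 200 nM over all genes tested, 75 nM stood at 0.41 and its neighbours 50 and 100 nM at 0.22 and 0.58. The part of the distance from 0 nM that lay off this path was 27.2% of the squared distance at 75 nM. It was 46% at 50 nM, 14.5% at 100 nM and 4.77% at 150 nM. Its root mean square per gene was 0.30 log2 at 75 nM, 0.24 at 50 nM, 0.28 at 100 nM and 0.21 at 150 nM. At 12.5 and 25 nM, which stood at only 0.009 and 0.04 on the path, this root mean square was already 0.13 and 0.15. No test was made of these values.

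Against the log2 average of 50 and 100 nM, 75 nM was above for 86 genes (0.853%) and below for 24 (0.238%), or 1.09% in both directions. Red cell genes were among those above, with 6 of 21 membrane and skeleton genes and 3 of 15 heme genes. Slc4a1 had means of 664, 1666 and 2816 CPM at 50, 75 and 100 nM, a difference of 0.28 ± 0.02 from the average of its neighbours (edgeR, adjusted p = 2.41e-11). Alas2 had 320, 821 and 1493 CPM, a difference of 0.25 ± 0.03 (edgeR, adjusted p = 1.16e-08). For genes that climb through these doses a positive value means that the log2 step from 50 to 75 nM exceeded that from 75 to 100 nM. Of non-erythroid genes, Heatr2, needed to assemble the dynein of cilia, had means of 9.59, 30.5 and 24.0 CPM, with 75 nM 1.00 above (edgeR, adjusted p = 8.02e-06), and Kif7, a kinesin of the Hedgehog pathway, 7.88, 20.4 and 15.1 CPM, with 75 nM 0.90 above (edgeR, adjusted p = 1.26e-06). Lgals9, at 75.0, 31.0 and 24.3 CPM, and Slc7a8, at 80.9, 73.0 and 102, were below their neighbours by -0.46 and -0.32. The number of calls rested on single libraries: without 75 nM replicate 1 it was 25 above and 3 below, without replicate 2 it was 28 and 4, and without 50 nM replicate 2 it was 171 and 39. Leaving out 100 nM replicate 1 gave 11 below, and leaving out 100 nM replicate 2 gave 49 above and 10 below. The calls of Ypel3, S1pr4 and Ces2g against the neighbours were lost when either 75 nM library was left out, with adjusted p from 0.118 to 0.52.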

How the data were processed

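For 16 libraries, 2 at each of 8 doses, the deposited values are unnormalized read counts by gene symbol. The submitters' processing notes name bcl2fastq, STAR and mm10, and the sources used here give no versions, counting program or annotation. Smart-seq2 reads keep no strand and no molecular identifiers, so overlapping antisense genes cannot be told apart and amplified reads are not independent molecules. Counts were analysed in R 4.3.3 with edgeR 4.0.16: filterByExpr kept 10080 of 23410 symbols, libraries were TMM-scaled, and a robust quasi-likelihood model with dose as a factor was fitted to all 16 libraries. Contrasts were adjusted by Benjamini-Hochberg over all genes and called under 0.05. Standard errors are the log2 difference divided by the square root of F. Library totals ran from 9393156 to 15802510 counts. The method was tested on simulated data, where recovery was incomplete at every size of change and lowest for the smallest. The pass mark for the largest was lowered after the first run.

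Named genes were the 10 highest and 10 lowest called differences from the midpoint (at least 20 CPM, same sign in all 8 choices of 1 library per dose), the 8 furthest above and below both ends, the 3 furthest from the neighbours, up to 4 members per list by adjusted p, Gata1 and Gata2. Other genes are named as list members or examples after their values were seen. Unnamed gene models were counted only. Gene lists numbered 34, and 762 of 767 entries matched. The comparison and the lists were chosen with earlier results of these data known. The mix was fitted on log2(CPM + 1). Coordinates are from GENCODE M21. DESeq2 1.42.0, limma 3.58.1, library-size scaling, no filter, fewer doses, a replicate block and leaving out each library were tried as alternatives. Some list members are counted with their list and not reported by name here.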

Additional observations from a re-analysis of the deposited data

How the results depend on the processing

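Counts with DESeq2 were 2280 above and 1729 below the midpoint and 127 above and 97 below both ends. Leaving out each library in turn gave 111 to 167 above and 69 to 112 below both ends, and 25 to 171 above and 3 to 39 below the neighbours. Against the neighbours, calls above were 46 with DESeq2, 51 with limma, 184 without a filter and 151 with only 50, 75 and 100 nM; calls below were 15 by library size and 39 without a filter. The mix held 29.17% of 200 nM on average, 37.16% by library size, 28.77% with a pseudocount of 5, and 28.89% to 29.78% without each library. A 2-fold limit left 8 genes above and 55 below the mix. The median position was 0.357, 0.338 by library size and 0.348 to 0.363 without each library. Moving the reference to the median position reversed 6 of the genes chosen by the naming rule: Myc (-0.0204), Cdkn1a (0.0299), Trp53inp1 (0.0695), Mt1 (-0.0193), Ctsd (0.18) and Myb (-0.0196). Of these 6, only Ctsd was called against the moved reference (edgeR, adjusted p = 2.12e-06). Slc25a39 (0.251) and Add1 (0.0713), called below the midpoint, were reversed too. So were Actb (0.0353) and Hist1h1c (0.232), which were not called under either reference. The cause of these changes was not tested. Of 2091 alternative values for named genes 2021 kept their side of the threshold, and those called in the main fit also kept direction. Direction was not compared for values not called in the main fit.

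Replicate numbers did not pair the libraries: correlations of deviations among 0, 75 and 200 nM ran from -0.09 to 0.02, and 2 of 28 pairs of doses passed 0.1. With a replicate block, 2814 genes were above and 1898 below the midpoint, 176 above and 129 below both ends, 2909 higher and 2693 lower than 0 nM, 3531 higher and 3606 lower than 200 nM, and 74 above and 22 below the neighbours. The block took the calls above both ends from Rbl1 (edgeR, adjusted p = 0.0537) and Nol9 (0.0777), which left 2 of 17 G1 cyclins and kinases. Depth limits the genes with few counts. Among those named, Acot11, Tubb1, Wnt2, Tmem184a and Hbb-bh1 had under 1 CPM at 0 nM. Their fitted differences and positions therefore rest on few counts at that dose.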
